A study of Mus musculus with 61 samples.

Results

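The 10 genes described here are the oocyte genes Nlrp4a, Nlrp4b, Nlrp4f, Nlrp9a, Nlrp9b and Nlrp14, of the NLRP family, and Oog1, Oog2, Oog3 and Oog4, of the PRAME-like family. They were taken by name, and all 10 have a row among the 23927 gene rows of the deposited table. They were chosen by family and selected on measured values: Oog3 and Nlrp4b had already been seen among the genes that were lower in oocytes of doxorubicin-treated mice. The oocyte comparison is therefore given as a description, with no test and as support for nothing.

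NLRP proteins carry a pyrin domain, a nucleotide-binding NACHT domain and leucine-rich repeats. Some of them, such as Nlrp3, build inflammasomes, but a separate branch of the family, with Nlrp4, Nlrp5, Nlrp9 and Nlrp14, was duplicated in rodents and is known for maternal transcripts of the oocyte. The Oog genes encode leucine-rich repeat proteins related to the tumour antigen PRAME and lie among many PRAME-like copies. Both families are known as stored maternal products, made in growing oocytes for the egg and early embryo.

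Single cells came from ovaries of wild-type CD-1 mice at postnatal day 5, an age at which most follicles are primordial or have just begun to grow. Mice were injected intraperitoneally with solvent or with doxorubicin, an anthracycline that breaks DNA through topoisomerase, and cells were taken 6 h later. The dose is left out because its unit in the labels is not one of dose. There were 16 oocytes and 16 granulosa cells from solvent-treated mice, called control here, and 16 oocytes and 13 granulosa cells from doxorubicin-treated mice. No label names the animal or litter of a cell, so each group counts as 1 sample, no p-value is given, and ranges over cells describe cells and not mice. All libraries carry the same identifier after the cell name, read here as 1 sequencing lane. That identifier does not say how cells were batched in preparation. Library totals ran from 6834594 to 31262609 estimated counts.

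Levels below are counts per 1000000 counts of the library (CPM), a share of the library and not an amount of RNA per cell. A group level is the summed counts over the summed totals of its cells. A group under 3 counts is set to 3 for a ratio, and 95% intervals of log2 ratios cover counting error only. PCR reads without molecular identifiers are not independent molecules, so true errors are wider.

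The labelled cell types were checked against marker lists. In the oocytes, 18 oocyte markers (among them Gdf9, Zp3 and Padi6) summed to a median of 43973 CPM per control cell and 32681 CPM per doxorubicin cell, and this sum was above that of the granulosa markers in all 32 libraries. Granulosa markers passed 1000 CPM in 3 doxorubicin oocytes, replicates 9, 11 and 12, and in no control oocyte. The libraries labelled granulosa were less clear: the oocyte markers summed to more than the granulosa markers in 5 of 16 control and 8 of 13 doxorubicin libraries, with medians of 2029 and 11118 CPM. Values of the members without those 13 are given at the end. That remaining set was not purely granulosa by markers. Stroma markers summed to 4384 CPM in control library 16 and 7961 CPM in doxorubicin library 13, against granulosa sums of 881 and 1288 CPM. Blood and immune markers summed to 33714 CPM in doxorubicin library 15.

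The promoters of the Oog genes are shown first, because the 4 copies share a stretch near the start of transcription. The table of RefSeq promoters (GRCm38.p6, the assembly also called mm10) matched 9 of the 10 genes, all but Nlrp14. The last 100 bases before the annotated start are printed in the direction of the gene, with capitals for every E-box, the motif CANNTG that basic helix-loop-helix factors such as the oocyte factor FIGLA bind, searched on both strands.
Oog1 (chr12:87602565-87602664, plus strand): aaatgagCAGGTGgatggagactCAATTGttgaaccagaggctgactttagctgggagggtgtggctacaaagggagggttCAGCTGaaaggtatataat
Oog2 (chr4:144190617-144190716, plus strand): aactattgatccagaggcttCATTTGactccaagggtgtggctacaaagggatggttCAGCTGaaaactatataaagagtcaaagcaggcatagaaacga
Oog3 (chr4:144162652-144162751, minus strand): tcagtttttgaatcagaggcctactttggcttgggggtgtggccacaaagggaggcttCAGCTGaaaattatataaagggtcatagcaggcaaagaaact
Oog4 (chr4:143450325-143450424, minus strand): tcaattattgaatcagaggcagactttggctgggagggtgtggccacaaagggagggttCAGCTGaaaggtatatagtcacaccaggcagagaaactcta
The longest run shared by all 4 is TTCAGCTGAAA, 11 bases around the E-box CAGCTG, and TATA begins 5 bases after that E-box in each. The run was picked from these 4 related promoters for being shared, so nothing is read from how few others hold it. It was present in 13 of 27025 promoters (0.0481%). Besides the 4 Oog genes these were Gm13403, Gm32920, Gm34439, Kcnj13 and Lcn15, none of them an Oog or PRAME-like gene by name, Gm2042, a near-copy of Oog1 on chromosome 12, and 3 PRAME-like genes on chromosome 4, Pramel23, Pramel26 (an earlier name is Gm13084) and Pramel32 (C87499). The E-box began 19 bases before the RefSeq start in Oog1 and 41 to 43 bases before it in Oog2, Oog3 and Oog4. For Oog1 the GENCODE annotation starts the gene further on, at 87602688, while the promoter shown ends at 87602664. The shorter distance in Oog1 therefore depends on the annotation used. Over the 250 bases before the start, the Oog promoters were 77.4% to 83.8% identical to one another.

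The Nlrp promoters share much less, and Nlrp4b is shown because its transcript differed most among the Nlrp genes that were well measured.
Nlrp4b (chr7:10687693-10687792, plus strand): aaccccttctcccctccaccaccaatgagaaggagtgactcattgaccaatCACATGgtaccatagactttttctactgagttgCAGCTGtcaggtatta
All 9 promoters held CANNTG within 250 bases, as did 66.0% of the 27025 promoters. CAGCTG was taken from the run shared by the 4 Oog promoters, so it was in those 4 by choice. With Nlrp4a and Nlrp4b it was in 6 of 9, and in 12.8% of promoters. Nothing is read from that count. TAATTG, the type of element the oocyte homeodomain factor NOBOX binds, was in 4 of 9, Nlrp9a, Nlrp9b, Oog3 and Oog4, and in 7.34% of promoters. TGATTG was in Nlrp4a and Nlrp4b, and in 13.05% of promoters. These are matches of letters before RefSeq starts, and binding was not measured. The promoters of Nlrp9b (20007773 to 20008022) and Nlrp4f (65205717 to 65205966) lie inside the GENCODE spans of these genes. Those of Nlrp4b and Oog3 reach into theirs, so motif counts depend on the start chosen. In a check of 2430 genes, bases after the RefSeq start were found in the longest coding transcript for 70.0%.

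The genes sit in clusters. Oog2 (chromosome 4, 144190719 to 144196934) and Oog3 (144157557 to 144162663) lie 28.1 kb apart on opposite strands, and Oog4 (143437164 to 143450324) lies 707 kb from Oog3. Oog1 (87602688 to 87608850) is alone on chromosome 12. Nlrp4a (26435113 to 26476142) and Nlrp9a (26535023 to 26575615) are neighbours on chromosome 7, 58.9 kb apart. The same chromosome holds Nlrp4b (10687789 to 10730168), Nlrp9b (19991465 to 20073306) and Nlrp14 (107166990 to 107198102), while Nlrp4f (65177111 to 65205977) is on chromosome 13. All are protein-coding genes in the GENCODE annotation of this build.

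Because the genes are copies, how far reads could be shared was measured as the share of 50-base windows of the longest coding transcript that also occur in transcripts of another gene. Nlrp4b and Nlrp14 had no such window, Oog4 had 0.72%, Nlrp4a 3.02%, Nlrp9b 6.22%, Nlrp9a 6.54% and Nlrp4f 7.08%. For Oog3 the share was 19.7%, nearly all with Gm4350, which stood at only 0.39 CPM in control oocytes. For Oog2 it was 45.2%, mostly with Gm13084, and for Oog1 it was 88.6%, mostly with Gm2042. The levels of Oog1 and Oog2 are therefore uncertain, since how the authors' counting split shared reads is not given in the sources used here. Between members, transcripts were up to 83.8% identical (Nlrp9a and Nlrp9b), with 82.5% for Nlrp4a and Nlrp4f and 79.4% for Oog2 and Oog3.

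In control oocytes the members ranged from one of the most abundant transcripts of the cell to bare detection. Nlrp14, a maternal NLRP gene known to be needed by the early embryo, stood at 6543 CPM as a group level, with cells from 1532 to 8963 and a median of 6566 CPM. Per kb of transcript this was 2000 CPM, the 10th highest of 23355 genes with a length. Nlrp14 alone made up 85.1% of the members' counts in control oocytes. Nlrp4f, whose protein is known to work with the maternal complex under the egg's cortex, was at 933 CPM, with cells from 477 to 1276 and a median of 869 CPM. Nlrp4f held 12.1% of the members' counts and ranked 275th per kb, at 263 CPM per kb.

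The next 4 transcripts were much lower. Per kb, group levels in control oocytes were 34.2 CPM for Oog3, 24.5 CPM for Nlrp4b, 10.7 CPM for Oog2 and 8.08 CPM for Nlrp4a. Nlrp4b was in every control oocyte, from 20.2 to 208 CPM with a median of 74.5 CPM. Oog3 was the most uneven of these 4, from 0 to 321 CPM with a median of 41.8 CPM. Its highest value belonged to control oocyte 5. Oog2 ran from 0 to 39.4 CPM with a median of 22.2 CPM, and Nlrp4a from 0 to 75.04 CPM with a median of 21.6 CPM. The order of these 4 is not a firm one, since their per-kb ranges over cells overlapped, whereas the lowest Nlrp14 cell (468 CPM per kb) was above the highest Nlrp4f cell (359). The lowest Nlrp4f cell (134) was above the highest cell of Nlrp4b (62.5), but below that of Oog3 (172).

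The last 4 were near the limit of detection. Nlrp9a was at 8.82 CPM, with 8 of 16 control oocytes at 0 and a highest cell of 37.7 CPM. Oog4 was at 2.74 CPM, with a highest cell of 12.4 CPM and 9 cells at 0. Oog1 was at 0.79 CPM and Nlrp9b at 0.74 CPM, with 11 and 12 of 16 cells at 0 and highest cells of 4.15 and 7.20 CPM. Control oocytes carried a median of 7 of the 10 transcripts at 5 reads or more, with a range of 3 to 9.

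**Figure D1:**
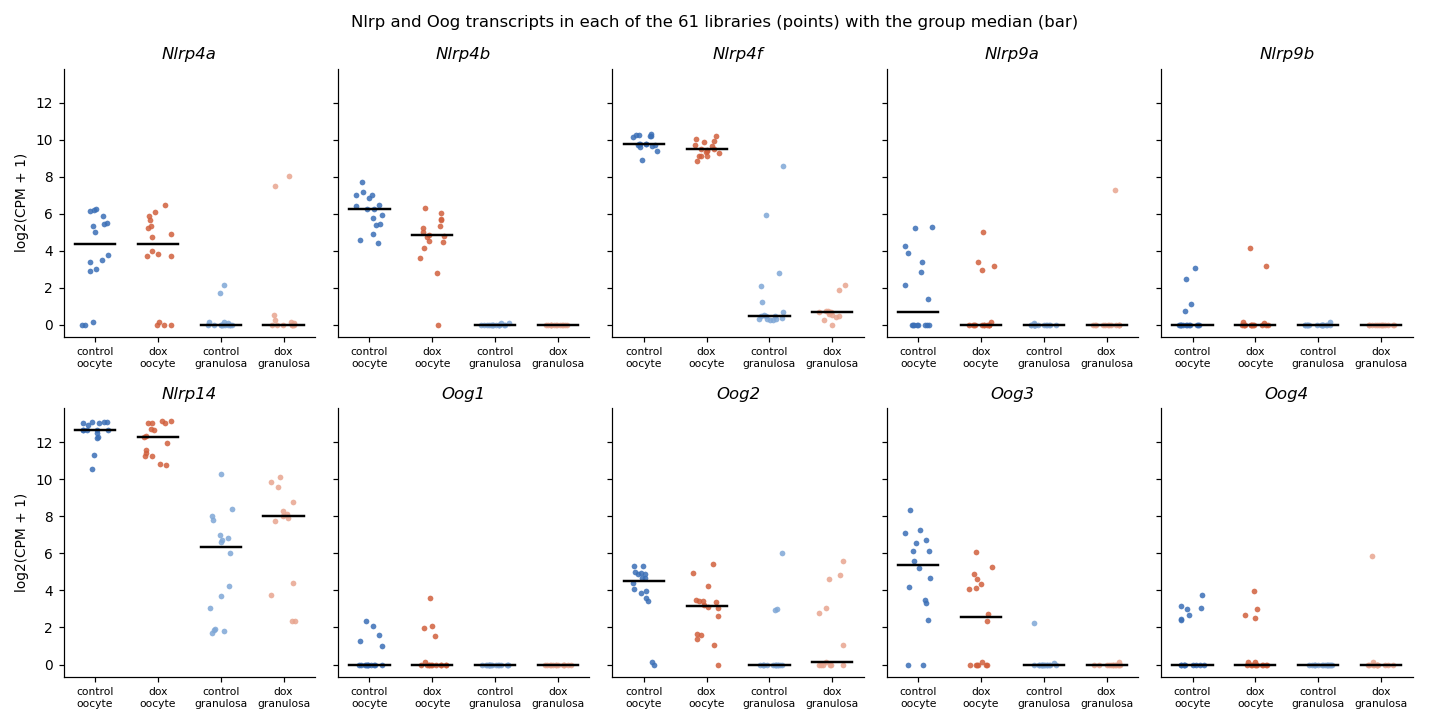
Level of each of the 10 genes, as log2(CPM + 1), in every library (points) of the 4 groups, with the group median as a bar. Nlrp14 and Nlrp4f are high in all 32 oocytes, Oog3, Oog2 and Nlrp4b sit lower in the doxorubicin oocytes with overlapping points, and single granulosa libraries stand far above their group for Nlrp4a, Nlrp9a, Nlrp4f and Oog4.

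At 6 h after doxorubicin, Oog3 and Nlrp4b stood furthest below their control level among the members detected in most oocytes, and the abundant Nlrp14 and Nlrp4f were close to it. Of the 7 members with at least 5 CPM in either oocyte group, 7 were lower in the doxorubicin group, and 48.9% of the 11119 genes with that level were lower. A log2 ratio of -1 or below, at least 2-fold lower, was reached by 3 of the 7 and by 2.45% of all genes. The median log2 ratio was -0.95 for the 7 members and 0.01 for all genes. Nlrp9a passed the level only through the control group, where it is the higher. Since this contrast was in view when the genes were selected, nothing is read from these counts.

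Oog3 encodes a PRAME-like protein whose function is little known. Control oocytes held 63.7 CPM of it as a group and doxorubicin oocytes 14.9 CPM, a log2 ratio of -2.10 (95% interval -2.16 to -2.04). Doxorubicin cells ran from 0 to 67.6 CPM with a median of 4.92 CPM, and 15 of 16 were below the control median. At least 5 reads were found in 14 of 16 control cells and in 9 of 16 doxorubicin cells. No doxorubicin cell was outside the control range. Single cells moved the value but not its direction: the log2 ratio was -2.61 without doxorubicin oocyte 2, the highest of its group, and -1.71 without control oocyte 5.

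Nlrp4b, an NLRP4 copy on chromosome 7, had a group level of 81.4 CPM without and 32.5 CPM with doxorubicin, a log2 ratio of -1.33 (-1.37 to -1.28). Doxorubicin cells ran from 0 to 77.7 CPM with a median of 27.4 CPM. The groups overlapped, but 15 of 16 doxorubicin cells were below the control median and 4 were below the lowest control cell. Leaving out each cell in turn kept the ratio between -1.50 and -1.19. Its transcript had no 50-base window in another annotated gene, so this value is free of the sharing that touches Oog1 and Oog2.

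Oog2 stood at 20.6 CPM without and 10.6 CPM with doxorubicin, a log2 ratio of -0.95 (-1.03 to -0.88). Doxorubicin cells ran from 0 to 41.4 CPM with a median of 7.97 CPM. Of the 16 doxorubicin cells, 14 were below the control median, while doxorubicin oocyte 2 was above every control cell. Without that oocyte the log2 ratio was -1.36. Gm13084, which shares windows with Oog2, was at 118 and 65.7 CPM in the same groups. Their sum was 139 CPM in control and 76.3 CPM after doxorubicin, with a log2 ratio of -0.86.

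Nlrp9a stood at 8.82 and 3.86 CPM in these groups, a log2 ratio of -1.19 (-1.32 to -1.06). Only 8 control and 4 doxorubicin cells held 5 reads or more, and the highest were 37.7 and 31.1 CPM. The size of this difference rested on single cells, at -2.51 without doxorubicin oocyte 2 and -0.84 without control oocyte 14.

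Nlrp4f was at 738 CPM in doxorubicin oocytes against 933 CPM in control oocytes, a log2 ratio of -0.34 (-0.35 to -0.33). Doxorubicin cells ran from 466 to 1159 CPM with a median of 705 CPM, and 12 of 16 were below the control median. Nlrp14 was at 5455 CPM against 6543 CPM, a log2 ratio of -0.26 (-0.27 to -0.26), with doxorubicin cells from 1765 to 9265 CPM and a median of 5097 CPM. The groups overlapped, and 2 doxorubicin cells were above the highest control cell. Nlrp4a was at 30.01 against 34.4 CPM, with doxorubicin cells from 0 to 88.5 CPM, a median of 20.2 CPM and 8 cells on either side of the control median. The log2 ratio of Nlrp4a, -0.20 (-0.25 to -0.15), turned to 0.13 without control oocyte 16.

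The other 3 members stayed below 5 CPM in both groups. Oog4 was at 2.02 CPM in doxorubicin oocytes, with 4 of 16 cells at 5 reads or more against 7 of 16 control cells. Oog1 was at 1.21 CPM, with a highest cell of 10.9 CPM, and Nlrp9b at 1.69 CPM, with a highest cell of 16.7 CPM. Both were nominally higher than in control oocytes and both rested on a few cells. Doxorubicin oocytes carried a median of 6 of the 10 transcripts at 5 reads or more, and 9 of 16 carried 6 or more against 14 of 16 control oocytes.

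**Figure D2:**
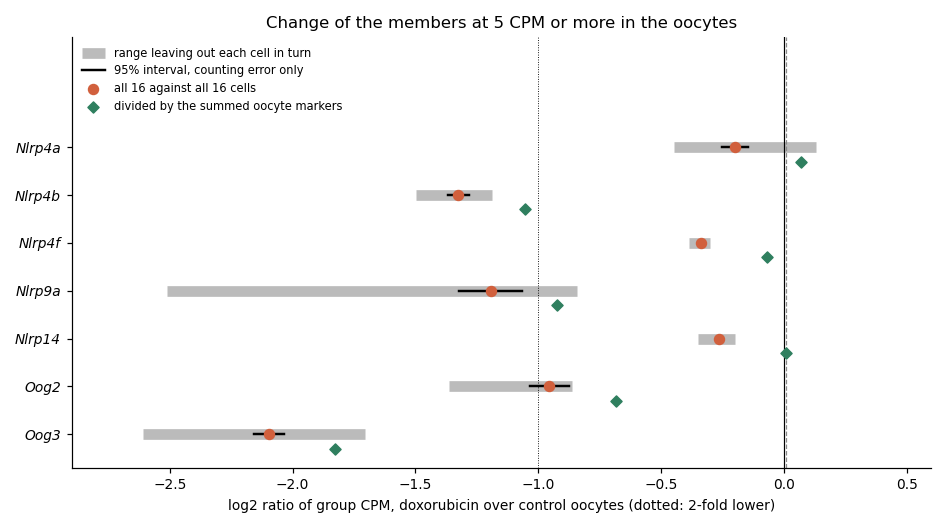
Log2 ratio of group CPM, doxorubicin over control oocytes, for the 7 members that reached 5 CPM in an oocyte group: circles use all cells, black lines are 95% counting intervals, grey bars the range on leaving out each cell in turn, diamonds the ratio after dividing by the summed oocyte markers, and the dashed line the median of all genes (0.01). Oog3 (-2.10) and Nlrp4b (-1.33) stay left of the dotted 2-fold line under all of these, while the diamonds of Nlrp14, Nlrp4f and Nlrp4a lie near 0.

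The oocyte markers were themselves lower in many doxorubicin oocytes, and this moved with the members. The median sum over the 18 markers was 43973 CPM in control cells, against 32681 CPM with doxorubicin, with ranges of 23671 to 55565 and 15732 to 65272 CPM, and 12 of 18 markers were lower. Counted per 1000 counts of those markers, Nlrp14 was at 152 in control and 153 in doxorubicin oocytes, and Nlrp4f at 21.7 and 20.7. On that scale the log2 ratios were 0.01 for Nlrp14, -0.07 for Nlrp4f and 0.07 for Nlrp4a. Nlrp4b still stood at -1.06 and Oog3 at -1.83, and Oog2 at -0.68 and Nlrp9a at -0.92. As group values relative to the summed markers, Nlrp14 and Nlrp4f were thus nearly level. Nlrp4b and Oog3, picked with this contrast in view, were lower. The median cell, per 1000 marker counts, stood at 162 in control and 131 in doxorubicin oocytes for Nlrp14. For Nlrp4f it stood at 23.7 and 22.2. Nlrp14 was therefore level as a group value but lower in the median cell. The sum weighs abundant markers most, and Padi6 alone made up 353 of each 1000 marker counts in control oocytes. Taken singly, the 18 markers had a median log2 ratio of -0.07, so nearness to level depends on the sum as the scale. The part of the marker level in the members' values was not otherwise tested.

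Granulosa markers also differed between the oocyte groups, with 8 of the 9 at 5 CPM or more higher in doxorubicin oocytes. Summed over all 19, they ran from 2.86 to 804 CPM with a median of 71.4 CPM in control oocytes, and from 7.57 to 3150 CPM with a median of 51.4 CPM in doxorubicin oocytes. Of the endothelial markers 2 of 7, and of the blood and immune markers 1 of 7, reached 5 CPM, and these 3 were higher in doxorubicin oocytes. Of the stroma markers 7 of 8 reached it, with 4 higher and 3 lower. The 3 doxorubicin oocytes with more than 1000 CPM of granulosa markers, replicates 9, 11 and 12, had 0, 0 and 0.09 CPM of Oog3. Their values of Oog2 were 0, 1.07 and 2.07 CPM. Without these 3 the log2 ratios were -1.84 for Oog3, -1.25 for Nlrp4b, -0.93 for Nlrp9a, -0.72 for Oog2 and -0.10 for Nlrp14. Oog3 and Nlrp4b had been seen lower in these same cells when the genes were selected, so these values are a description only.

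Cell to cell, 5 of the 7 members at 5 CPM or more varied more than the median gene in control oocytes. The coefficient of variation of CPM over control oocytes had a median of 0.63 for the 7 members at 5 CPM or more and 0.45 for all 10446 genes at that level. Nlrp4f (0.24) and Nlrp14 (0.34) were below that median, and Nlrp9a (1.601), Oog3 (1.21), Nlrp4a (0.93), Nlrp4b (0.63) and Oog2 (0.59) above it. The genes were not matched on level, and lower transcripts scatter more. In doxorubicin oocytes the medians were 0.81 for 6 members and 0.53 for 10780 genes, and Nlrp14 was at 0.52.

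Oocytes high in one member tended to be high in others. Spearman correlations of log2(CPM + 1) over the 32 oocytes were positive for 21 of 21 pairs of the 7 measured members, with a median of 0.39, and for 17 pairs they were positive within both groups. All points share what was read as 1 sequencing lane and the closed scale of CPM. The groups themselves also differ in level, so these are descriptions. The share of positive pairs among other genes was not computed, so nothing particular to the members is read from these counts. The neighbours Oog2 and Oog3 had the highest value, 0.71, with 0.70 over control and 0.53 over doxorubicin oocytes. The neighbours Nlrp4a and Nlrp9a reached 0.55, with 0.65 and 0.46 within the groups. Pairs that are not neighbours stood above that: Nlrp14 with Oog2 at 0.61, Nlrp9a with Nlrp14 at 0.60 and Nlrp4b with Oog3 at 0.58. Nlrp4a and Oog3, on different chromosomes, were at -0.10 over control and 0.83 over doxorubicin oocytes. Nlrp4b and Oog2, on different chromosomes, stood at 0.77 over control oocytes and -0.21 over doxorubicin oocytes. For Nlrp4b and Oog3 the values were 0.70 and 0.13.

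The mean of the 10 members tracked the summed oocyte markers, at 0.68 over 32 oocytes, 0.56 over control and 0.76 over doxorubicin cells. Of single members, Nlrp14 followed the markers most closely, at 0.74 over control and 0.82 over doxorubicin oocytes, while Nlrp4b went from 0.53 to 0.13. Among 4585 genes with at least 50 CPM in control oocytes, the 5 whose pattern over the 32 oocytes was most like that mean were Gm13084 (0.81), Zp1 (0.74), Taf1a (0.73), E330034G19Rik (0.67) and Oas1e (0.66). Gm13084 is the PRAME-like gene that shares windows with Oog2, so its likeness can hold shared reads. Zp1 encodes a protein of the zona pellucida, the coat of the egg, and is itself one of the oocyte markers.

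Cdkn1a, the cell cycle inhibitor induced by p53 after DNA damage, was at 15.7 CPM in oocytes of solvent-treated mice and at 130 CPM after doxorubicin. Over the 16 doxorubicin oocytes its Spearman correlation was -0.54 with Oog2, -0.39 with Nlrp4f, -0.27 with Nlrp9a, -0.11 with Nlrp14 and 0.22 with Nlrp4a. It was 0.05 with Nlrp4b and -0.0015 with Oog3, the members furthest below their control level. With the summed granulosa markers, values over the same cells were -0.61 for Oog2, -0.54 for Oog3, -0.49 for Nlrp4f and 0.05 for Nlrp4b. The part of the granulosa markers in the Cdkn1a values was not tested.

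**Figure D3:**
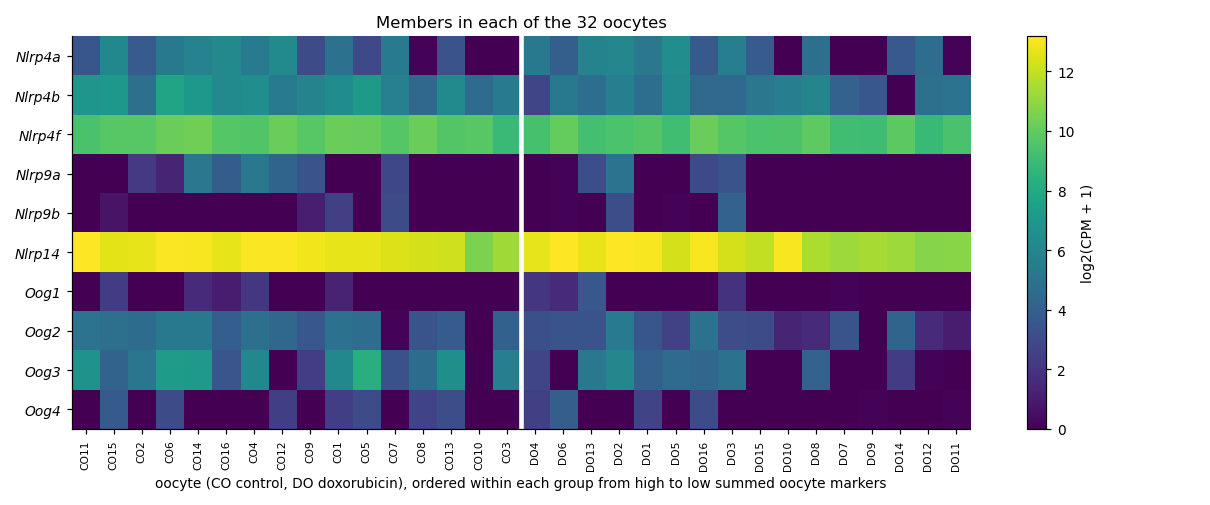
Log2(CPM + 1) of the 10 genes (rows) in each of the 32 oocytes (columns), control on the left and doxorubicin on the right, ordered within each group from the highest to the lowest sum of oocyte markers. Nlrp14 and Nlrp4f are bright throughout, and the Oog3 row holds 6 cells at 0 in the doxorubicin group and 2 in the control group.

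Related genes from lists outside the 10 did not all go the same way in oocytes. Of the other Nlrp4 and Nlrp9 copies, Nlrp4c went from 47.3 to 55.6 CPM and Nlrp4g, annotated as a transcribed pseudogene, from 57.98 to 33.1 CPM. Nlrp4e was at 4.05 and 3.13 CPM. Nlrp9c was at 1.26 CPM in control oocytes, with 247 counts, and had 1 count in doxorubicin oocytes. Nlrp4d was not analysed here.

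Among the other PRAME-like genes, 6 of 6 at 5 CPM or more were lower (48.9% of all genes), 1 of them at least 2-fold (2.45%), with a median log2 ratio of -0.39. Pramef12 (130 and 128 CPM), Pramef20 (85.6 and 78.8 CPM) and Pramef8 (59.0 and 54.6 CPM) were nearly level. Gm13084 went from 118 to 65.7 CPM and C87414 from 36.5 to 23.0 CPM. The 1 past 2-fold was C87499, at 5.55 and 1.19 CPM, which entered the count through the control group alone. Gm2042, the near-copy of Oog1, was at 7.71 and 1.06 CPM. Gm13084, C87499 and Gm2042 are also carriers of the 11-base run shown for the Oog promoters. Of the member carriers, Oog2 and Oog3 were lower, while Oog4 stood at -0.44 and Oog1 at 0.61, both below 5 CPM. The direction of Oog1 is uncertain, since most of its windows are shared with Gm2042. Levels of the remaining carriers are not given here, and a link between the run and the level was not tested. C87499 and Gm2042 were named after their values were seen.

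Of the other NLR genes, 4 reached 5 CPM. Nlrp5, the MATER protein of the maternal complex, stood at 4684 CPM without and 3528 CPM with doxorubicin, a log2 ratio of -0.41, close to those of Nlrp4f and Nlrp14. Nlrp2 (3.75 and 14.03 CPM), Nlrx1 (0.55 and 14.99 CPM) and Naip1 (3.25 and 10.2 CPM) were at least 2-fold higher, as were 6.3% of all genes. Of the inflammasome partners only Pycard, the adaptor, passed the level, at 0.97 and 5.64 CPM. These 4 reached 5 CPM in the doxorubicin group alone, which fixed their direction. The 8 oocyte transcription factors on the list split into 4 higher and 4 lower, with a median of -0.00. Nobox was at 2206 and 1624 CPM without and with doxorubicin, Figla at 457 and 487 CPM, and Sohlh1 at 711 and 734 CPM.

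Between the cell types, 7 of the 7 members with at least 5 CPM in either control group were at least 2-fold above the granulosa level in the oocytes, as were 29% of 12373 genes. The median log2 ratio of the 7 was 6.33. The genes are listed as oocyte-specific, so this direction was given by the choice of members, and 5 of the 7 reached 5 CPM in oocytes only. Nlrp4b had the widest gap, with 15936 counts in control oocytes and 2 in control granulosa libraries (log2 ratio 12.25, interval 10.98 to 15.88). Nlrp14 was at 159 CPM in control granulosa libraries, with 5 reads or more in 16 of 16, from 2.25 to 1235 CPM and a median of 81.5 CPM. Oog2 had the smallest gap, at 4.94 CPM with a log2 ratio of 2.06, which was 4.39 without control granulosa library 8. Leaving out the 5 control granulosa libraries with more oocyte than granulosa markers moved the median to 7.15.

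The libraries labelled granulosa differed from one another in oocyte transcripts. The members, of whose counts Nlrp14 made up 82.4% in the control and 84.5% in the doxorubicin group, summed to medians of 85.2 CPM in control and 263 CPM in doxorubicin granulosa libraries, and the 16 oocyte markers at 5 CPM or more were all higher in the doxorubicin group. In these libraries, reads from an oocyte and transcripts made by the granulosa cell cannot be told apart. Of the 5 members with at least 5 CPM in either granulosa group, 3 were at least 2-fold higher (20.6% of 12194 genes) and 1 at least 2-fold lower (20%) in the doxorubicin group. The median log2 ratio of these 5 was 1.08, against -0.03 for all genes. For 4 of the 5, all but Nlrp14, only 1 of the groups reached that level.

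Nlrp14 stood at 159 CPM in the control and 337 CPM in the doxorubicin libraries, with a log2 ratio of 1.08 (1.06 to 1.11), with doxorubicin libraries from 4.05 to 1118 CPM and a median of 261 CPM. All doxorubicin libraries were within the control range. Per 1000 counts of oocyte markers it was lower in the doxorubicin group, at 23.6 against 48.8, a log2 ratio of -1.05, while the median libraries stood at 24.6 and 27.8. Control library 8 held 48.9% of the control counts, and without it the log2 ratio in CPM was 1.96. Without the 13 libraries with more oocyte than granulosa markers its log2 ratio was 0.17.

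Nlrp4f went the other way, with 28.4 CPM in the control and 0.81 CPM in the doxorubicin libraries and a log2 ratio of -5.13 (-5.41 to -4.86). Control granulosa library 8, at 374 CPM, held 83.2% of the control counts, and library 4 was next at 59.4 CPM. Without library 8 the log2 ratio was -2.65. The median library was at 0.37 CPM in the control and 0.59 CPM in the doxorubicin group, so the median library was not lower. The highest doxorubicin library was at 3.43 CPM.

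The low Nlrp4f in doxorubicin granulosa libraries stood beside abundant oocyte markers. Doxorubicin granulosa libraries 1, 4 and 6 had 46947, 28591 and 35732 CPM of summed oocyte markers, within the range of the oocytes, and 2.70, 0.33 and 0.46 CPM of Nlrp4f. Every oocyte had at least 466 CPM of it. Control granulosa library 8, with 17877 CPM of markers, was near the oocytes in this respect. Per 1000 oocyte marker counts Nlrp4f was at 21.7 in control and 20.7 in doxorubicin oocytes, and at 8.70 in control and 0.057 in doxorubicin granulosa libraries. The median libraries of the granulosa groups stood at 0.25 and 0.083, so a few libraries carried the control value.

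Other oocyte transcripts in those libraries kept other proportions. Padi6 was at 353, 342, 239 and 218 per 1000 marker counts in the same order of groups, and Zp3 at 73.4, 74.2, 54.7 and 96.3. Gdf9, a growth factor of the oocyte, was at 22.4, 15.8, 20.9 and 127, but the median control granulosa library was at 0.61. Nlrp4b had 0 counts in all 13 doxorubicin granulosa libraries, which allows at most 0.021 CPM at 3 counts, and stood at 1.89 per 1000 marker counts in control oocytes. The oocyte transcripts of the doxorubicin granulosa libraries were thus not in the ratio found in the oocytes, and the reason was not tested.

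**Figure D4:**
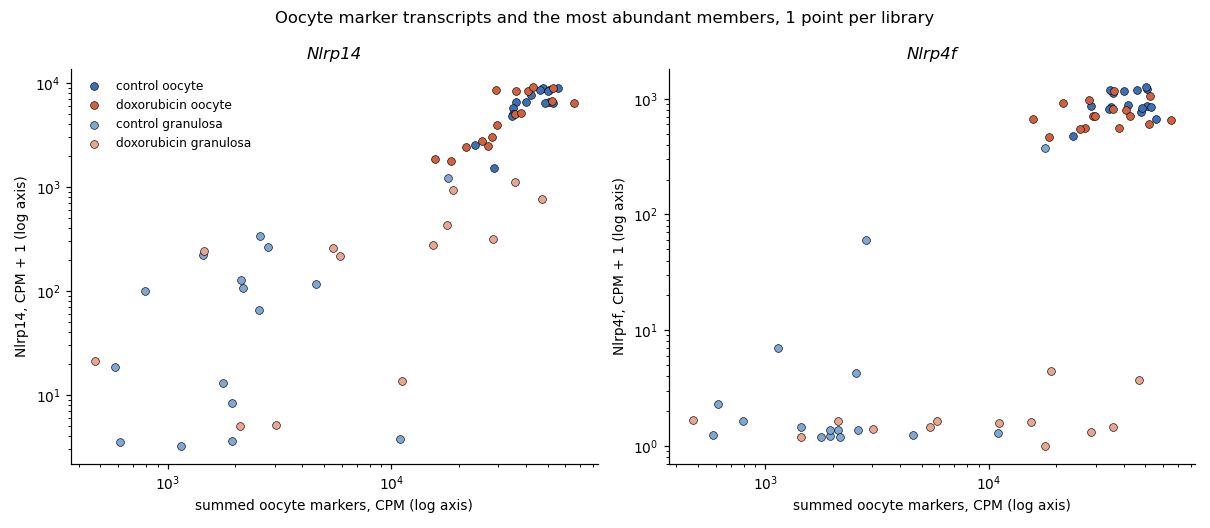
Nlrp14 (left) and Nlrp4f (right), as CPM + 1 on a log axis, against the summed oocyte markers on a log axis, with 1 point per library of the 4 groups. Nlrp14 is highest in the oocytes and lower in granulosa libraries also at a like marker sum, while Nlrp4f is at 3.43 CPM or less in the 13 doxorubicin granulosa libraries, including those whose marker sum is as high as that of oocytes.

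The remaining members appeared in single doxorubicin granulosa libraries. Nlrp4a was at 263 CPM in library 4 and 178 CPM in library 9, above every oocyte, and at less than 1 CPM in each of the others. All 1719 counts of Nlrp9a came from library 7, at 152 CPM, against 1 count in the control group (log2 ratio 9.49, interval 8.597 to 16.38). Oog4 was at 57.6 CPM in library 12, which held 99.8% of the 554 counts of its group, and had 0 counts in the control group. Set against 3 counts for the whole control group, Oog4 was at least 232-fold higher, a size set by that 1 library.

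Oog2 was at 8.25 CPM in doxorubicin and 4.94 CPM in control granulosa libraries, a log2 ratio of 0.74 (0.61 to 0.87). Library 8 of the control group, at 63.8 CPM, held 81.4% of the control counts, and without it the ratio was 3.07. The direction turned per oocyte marker counts, to -1.39, and in libraries of at least 10000000 counts, to -0.06. Oog2 had 5 reads or more in 6 of 13 doxorubicin and 3 of 16 control libraries. Oog3 had 1 count in the doxorubicin and 27 in the control group, Nlrp9b 0 and 1, and Nlrp4b 0 and 2. Oog1 had 0 counts in both, which allows at most 0.021 CPM in the doxorubicin and 0.017 CPM in the control group at 3 counts. The carriers of Nlrp4a, Nlrp9a and Oog4 named above, doxorubicin libraries 4, 7, 9 and 12, were all among the 13 with more oocyte than granulosa markers. In the 11 control and 5 doxorubicin libraries left without the 13, Nlrp9a and Oog4 had 0 counts in both groups, and Nlrp4a had 32 and 1. The log2 ratios there were -2.31 for Nlrp4a, -3.81 for Nlrp4f and 2.43 for Oog2.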

How the data were processed

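Single-cell full-length cDNA libraries were made with a low-input kit and sequenced paired-end, per the labels' protocols. The deposited table holds estimated counts per gene symbol, made by the authors (34.0% of values above 0 are not whole). Partek, Bowtie2, HISAT2, DESeq2 and the build mm10 are listed per the submitters' processing notes. Which tool counted, its annotation, its filters and its handling of shared reads are not given in the sources used here. Raw reads of doxorubicin oocyte 4 were lost, per the labels, and its column was kept.

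Counts were rounded, and 61 columns were used. Group CPM is the summed counts over the summed totals of all 23927 rows, including 22 symbols turned into dates (0.144% of counts). Ratios used a floor of 3 counts per group, exact conditional binomial 95% intervals and members that reached 5 CPM in one of the groups compared. No test was made, since cells are not replicates. No doublet caller was run. Named were all members, the other Nlrp4 and Nlrp9 copies, up to 6 genes per other list at 20 CPM or more in oocytes, the 5 genes most like the members' mean, and Cdkn1a. The members and lists were chosen with earlier results of these data known. Identity was computed on GENCODE transcripts in place of the planned proteins. Alternatives were equal weights, medians of log2(CPM + 1), edgeR 4.0.16 TMM and DESeq2 1.42.0 size factors on group sums, no rounding, other filters and other sets of cells. Python 3.11.15, Biopython 1.88 and R 4.3.3 were used. The ratio script was tested on simulated data.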

Additional observations from a re-analysis of the deposited data

Results flagged for a closer look

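In 3 members the log2 ratio of doxorubicin over control had opposite signs in oocytes and in granulosa libraries, outside the counting intervals and on leaving out any single cell that left a value. The difference was not tested, since each group is 1 sample. Nlrp4a also had opposite signs, -0.20 and 6.44, but its sign in oocytes turned without control oocyte 16. Nlrp9a stood at -1.19 in oocytes and 9.49 in granulosa libraries, where 1 library held all counts of the doxorubicin group. Nlrp14 stood at -0.26 and 1.08, and Oog2 at -0.95 and 0.74. Per oocyte marker counts the values were 0.01 in oocytes and -1.05 in granulosa libraries for Nlrp14, and -0.68 and -1.39 for Oog2. These are group values, and the cells of both groups overlapped for each of the 3 in each cell type.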

How the results depend on the processing

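All comparisons rest on 1 sample per group, and Nlrp9a, Nlrp9b, Oog1 and Oog4 were at 0 in 8 or more of 16 oocytes per group. No paired analysis was possible because the replicate numbers only name cells and no test was made. The cause of a moved value was not tested. In oocytes the members' median log2 ratio, -0.95, was -0.68 for cell medians, -1.07 for cells of at least 10000000 counts, -0.39 and -0.65 with filters of 1 and 20 CPM, and -1.36 to -0.84 on leaving out single cells. Chosen after seeing the data, it was -0.72 for oocytes under 1000 CPM of granulosa markers, -0.68 per oocyte marker counts and -0.86 with Oog2 and Gm13084 summed. In granulosa libraries the median, 1.08, was 1.12 for equal weights, 0.12 for cell medians, 1.12 for both TMM and size factors, 0.71 for the deeper cells, 3.76 with the 1 CPM filter and 0.78 to 3.07 on leaving out single cells. It reversed to -1.07 for cells richer in their own markers and to -1.05 per oocyte marker counts. In those richer cells Nlrp9a had 0 counts in both groups, so the -1.07 is over the other members. Nlrp4a had 1 count there in the doxorubicin group, set to 3. The sign also turned for Nlrp4a (-2.31 for cells richer in their own markers), Nlrp4f (0.21 for cell medians), Nlrp14 (-1.05 per oocyte marker counts) and Oog2 (-1.39 per oocyte marker counts and -0.06 for the deeper cells). Between cell types the median, 6.33, was 5.40 for cell medians, 7.15 for cells richer in their own markers, 6.85 and 5.85 with filters of 1 and 20 CPM, and 6.00 to 7.52 on leaving out single cells. Over all alternatives 291 of 295 values in oocytes, 176 of 183 in granulosa libraries and 273 of 273 between cell types kept their sign.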

Other observations

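Among PRAME-like genes below 5 CPM, picked here after their values were seen, E330014E10Rik had 738 counts in control oocytes, with 5 reads or more in 6 of 16 cells and a highest cell of 22.3 CPM. It had 0 counts in the 16 doxorubicin oocytes, where 3 counts would be 0.017 CPM, and 25 counts in the doxorubicin granulosa libraries. C87499, just above that level, had 5 reads or more in 10 of 16 control and 3 of 16 doxorubicin oocytes.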
